A study of Mus musculus with 4 samples.

Results

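Capillary-like endothelial cells of the mouse aorta were taken as the cell barcodes that carried endothelial RNA together with RNA of Cd36, Rgcc and Gpihbp1, and 407 of 37865 kept barcodes met this rule. A barcode was kept with at least 1000 UMIs (unique molecular identifiers, each standing for 1 captured RNA molecule) and at most 10% of them from mitochondrial genes. A kept barcode was endothelial when Pecam1, Cdh5, Egfl7 and Tie1 summed to at least 3 UMIs with at least 2 of these genes seen and the macrophage genes C1qa, C1qb and C1qc summed to at most 2. It was capillary-like when Cd36, Rgcc and Gpihbp1 also summed to at least 3. The other 515 endothelial barcodes, with 0 to 2 such UMIs, are called other endothelial. The members were chosen by the measured UMIs of these 10 genes, so their levels describe the choice and are not a finding. The study, on epsins and atheroma regression by its title, made 1 single-cell library of whole digested aorta in each of 4 groups with a 10x Genomics 3' kit. The groups were WT mice and LysM-DKO mice on normal diet, and WT/ApoE-/- mice and LysM-DKO/ApoE-/- mice on western diet. All 4 came from aortas perfused with buffer and digested with collagenases and liberase, and ages and the number of animals per library are not given in the sources used here.

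The LysM promoter is active in myeloid cells, so the deletion in LysM-DKO mice is aimed at those cells and not at endothelium. Epn1 and Epn2, the epsin genes read here as the targeted pair from the title, encode clathrin adaptors of endocytosis. Levels are given in CPM, the UMIs of a gene scaled to a fixed total of UMIs per library and kind of barcode. In capillary-like barcodes Epn1 stood at 38.1 CPM (WT), 44.1 CPM (LysM-DKO), 32.9 CPM (WT/ApoE-/-) and 35.4 CPM (LysM-DKO/ApoE-/-). Epn2 stood at 118 and 108 CPM on normal diet and at 98.7 and 153 CPM on western diet. The counting intervals of both log2 ratios of LysM-DKO over WT included 0 on either diet for both genes. Apoe was at 555 and 653 CPM on normal diet and at 21.9 and 35.4 CPM on western diet, in the direction of the ApoE-/- label. Xist was at 748 and 682 CPM on normal diet and at 0 in both western diet libraries, and the Y-linked gene Ddx3y was at 0 on normal diet and at 170 and 94.4 CPM on western diet. Diet, ApoE genotype, sex and the Cell Ranger version in the file headers therefore changed together between the diets and cannot be told apart. With 1 library a group, every comparison between groups below describes these libraries and has no replicate check. All intervals are exact 95% intervals and cover counting error only.

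Capillaries exchange solutes and lipid with the tissue around them. In muscle, heart and fat their endothelium takes up fatty acids from circulating lipoproteins: Gpihbp1 holds lipoprotein lipase at the lumen, Cd36 takes up fatty acids and oxidised lipid, and Fabp4 and Fabp5 bind fatty acids inside the cell. A large artery is lined by a luminal endothelium, while capillaries run in its adventitia and in the fat around it, so a digest of whole aorta can hold cells of both kinds.

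The members were spread unevenly over the libraries. On normal diet the WT library held 149 capillary-like barcodes and the LysM-DKO library 217, and on western diet WT/ApoE-/- held 23 and LysM-DKO/ApoE-/- 18. They summed to 604131, 862301, 182378 and 84741 UMIs, and a median member held 2896, 2957, 8228 and 3247.5 UMIs in the same order. The kept barcodes of the 4 libraries numbered 7758, 8230, 13744 and 8133, with 2103 to 6761 UMIs at the median. Pairs of libraries shared 469 barcode sequences among all 70795 deposited ones and 143 among those kept, and no capillary-like barcode was shared. The 2 normal diet libraries thus carried 366 of the 407 members, and the western diet values rest on few cells.

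Endothelial genes that the rule did not use were present in the members, though not each of them in every library. Cldn5, of endothelial tight junctions, stood at 694, 629, 214 and 1098 CPM (0.10 to 3.63 CPM in smooth muscle-like barcodes), in the order WT, LysM-DKO, WT/ApoE-/- and LysM-DKO/ApoE-/-. Sox18, another such gene, stood at 76.1, 55.7, 0 and 47.2 CPM in the same order. The capillary label held for a part of the members only. All 3 of Cd36, Rgcc and Gpihbp1 were seen in 96, 140, 8 and 7 members, and Cd36 in 145, 202, 23 and 11. At the edge of the rule, 9, 18, 0 and 4 members had exactly 3 UMIs of these genes, and 14, 25, 6 and 2 endothelial barcodes had exactly 2. Genes of lymphatic endothelium marked some of them: 6, 10, 2 and 6 members carried at least 3 UMIs from at least 2 of Prox1, Lyve1, Pdpn, Mmrn1 and Reln. In LysM-DKO/ApoE-/- these were 33.3% of the members (interval 13.3 to 59.0%), and none of the 6 had a Cd36 UMI. Members with over 1% of UMIs from the smooth muscle genes Acta2, Myh11, Tagln, Cnn1, Myl9 and Smtn numbered 26, 36, 13 and 1, and the 13 made up 56.5% (34.5 to 76.8%) of the WT/ApoE-/- members. These 6 genes summed to 7952, 6956, 22179 and 5074 CPM in the members. The 6 fibroblast markers summed to 699, 1251, 7452 and 496 CPM. After leaving out the lymphatic and the smooth muscle-rich barcodes, 117, 172, 8 and 11 members remained, and the values in this reduced set are given beside many, not all, of the western diet values.

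**Figure D1:**
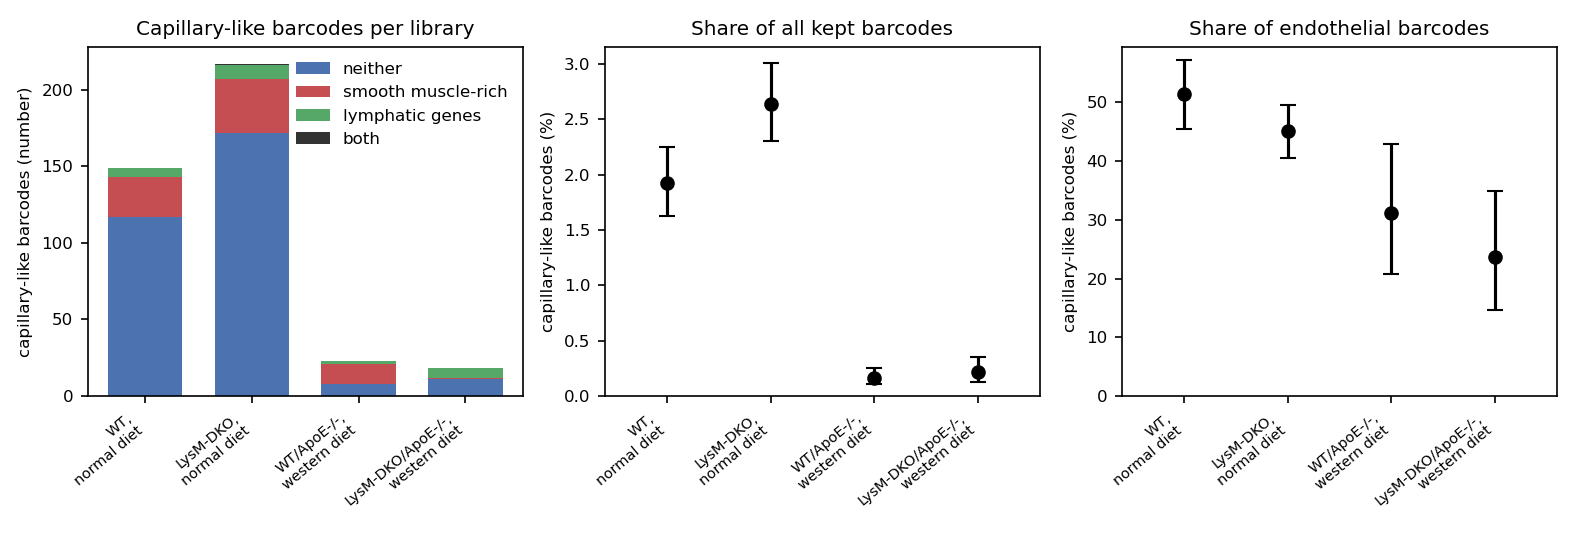
Left, number of capillary-like barcodes in each library (bars), split into those that carry lymphatic genes, those rich in smooth muscle RNA, both, and neither. Middle and right, their share in percent of all kept barcodes and of endothelial barcodes (points, with exact 95% binomial intervals): the western diet libraries hold 23 and 18 members against 149 and 217 on normal diet.

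As a share of kept barcodes, capillary-like cells made up 1.92% of WT (interval 1.63 to 2.25%), 2.64% of LysM-DKO (2.30 to 3.01%), 0.167% of WT/ApoE-/- (0.106 to 0.251%) and 0.221% of LysM-DKO/ApoE-/- (0.131 to 0.350%). Both normal diet shares lay above both western diet shares, and on normal diet the intervals of LysM-DKO and WT did not overlap. They overlapped with a capillary sum of at least 5, with at most 5% mitochondrial UMIs, in the reduced set (1.25 to 1.80% and 1.79 to 2.42%), and with thinned barcodes, so that separation depends on these settings. As a share of endothelial barcodes they made up 51.4%, 45.0%, 31.1% and 23.7%, so the order of the genotypes turned round with the denominator on both diets. On this denominator the intervals of the genotypes overlapped. They were 45.5 to 57.3% and 40.5 to 49.6% on normal diet, and 20.8 to 42.9% and 14.7 to 34.8% on western diet. With each barcode thinned to 1000 UMIs, 60, 82, 5 and 7 members remained, or 41.7%, 37.6%, 22.7% and 14.6% of endothelial barcodes. On the kept denominator the thinned shares were 0.773%, 0.996%, 0.0364% and 0.0861%. These are shares of recovered barcodes and not of cells in the wall.

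Against the other endothelial barcodes of the same libraries, the capillary-like cells were set apart by capillary, lipid and VEGF receptor genes on one side and by arterial and luminal genes on the other. Lymphatic genes marked 29, 79, 1 and 5 of the 141, 265, 51 and 58 other endothelial barcodes of WT, LysM-DKO, WT/ApoE-/- and LysM-DKO/ApoE-/-. Smooth muscle-rich ones numbered 24, 37, 33 and 12 in the same order, so the other endothelial barcodes are a mixture. The most abundant distinguishing gene of the capillary-like cells was Fabp4, the fatty acid binding protein of adipocytes, macrophages and capillary endothelium (chr3:10204088-10208576, minus strand, GRCm38). Fabp4 stood at 15232, 22413, 6333 and 27555 CPM in capillary-like barcodes and at 1292, 1556, 594 and 526 CPM in other endothelial barcodes, again in the order WT, LysM-DKO, WT/ApoE-/- and LysM-DKO/ApoE-/-. The lowest capillary-like library lay above the highest other endothelial one, and the fitted log2 fold change was 4.06 ± 0.31 (SE, 4 libraries). Single barcodes with Fabp4 UMIs were common everywhere: 99.3%, 99.1%, 95.7% and 72.2% of members, 46.6 to 72.5% of other endothelial barcodes, and 50.3 to 67.8% of smooth muscle-like barcodes, where Fabp4 stood at 237 to 418 CPM. The share of barcodes with a UMI is therefore no measure of expression for this gene, and the level is used instead. In LysM-DKO/ApoE-/- 5 members had no Fabp4 UMI, all of them among the 7 lymphatic or smooth muscle-rich ones, and the other 11 members stood at 42984 CPM.

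Over all genes outside the rule, 318 of 6464 genes tested, or 4.92%, were higher in capillary-like barcodes and 323, or 5.0%, were lower, by edgeR's quasi-likelihood fit with library as a block and a Benjamini-Hochberg adjusted p below 0.05. Both kinds were split on UMIs of the same cells, so a call here is not independent evidence about the members. It marks a difference that passed in the fit of the 4 libraries together and need not hold in each of them. "Higher" and "lower" in the following paragraphs refer to these calls. The median log2 fold change over all 6464 genes was -0.01. Leaving out 1 library at a time gave 88 to 348 genes higher and 57 to 364 lower, with the fewest without WT on normal diet and 132 and 133 without LysM-DKO on normal diet. DESeq2 called 176 and 187. Without the lymphatic and smooth muscle-rich barcodes of both kinds, 344 genes were higher and 439 lower of 5101 tested. These included 252 of the 318 and 281 of the 323. None of the called genes that could be fitted changed sign under any of these settings.

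**Figure D2:**
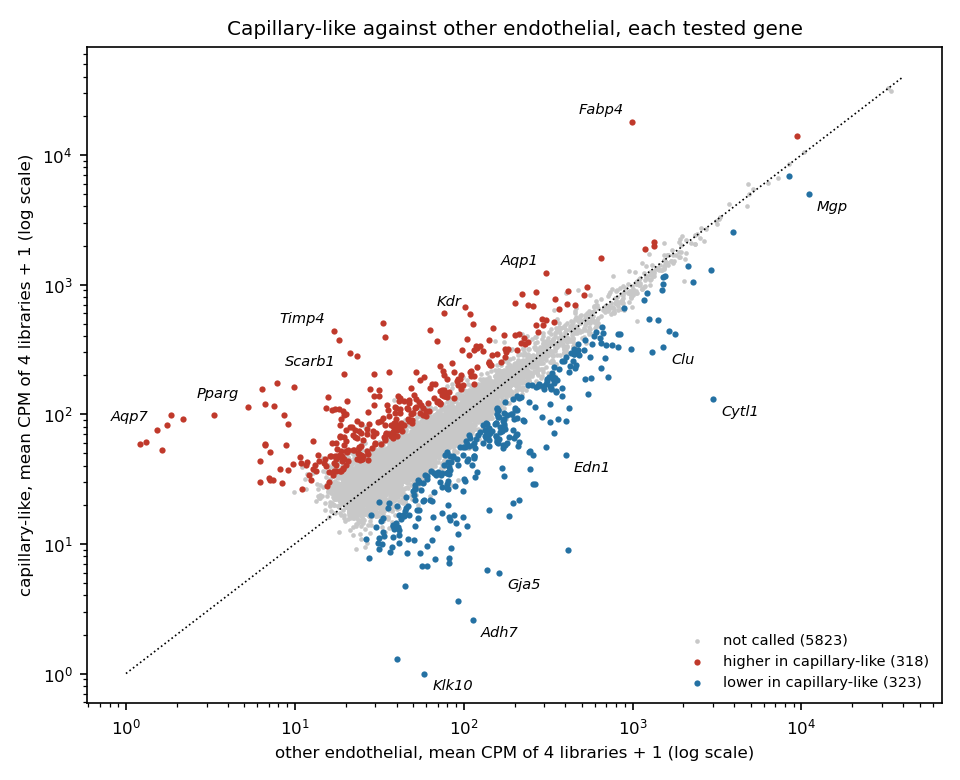
Mean level over the 4 libraries in other endothelial barcodes (x axis) and in capillary-like barcodes (y axis), in CPM with 1 added, on log axes; each point is 1 of 6464 genes tested and the dotted line marks equal levels. Red genes (318) were higher and blue genes (323) lower in capillary-like barcodes, with Fabp4 far above the line and Cytl1 far below it.

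Of 20 capillary identity genes, 15 were higher and 0 lower, with a median log2 fold change of 2.02. Among 19 pan-endothelial genes outside the rule, 4 were higher (Flt1, Kdr, Robo4, S1pr1) and 4 lower (Icam2, Mmrn2, Nos3, Ptprb), with a median of 0.03. Timp4, an inhibitor of matrix metalloproteinases (chr6:115241892-115252205, minus strand), stood at 432, 641, 65.8 and 614 CPM in the members against 8.98, 24.6, 10.7 and 19.6 CPM in other endothelial barcodes. Its log2 fold change was 4.80 ± 0.28 (SE), and WT/ApoE-/- was the low library among the members. Cd300lg, an endothelial cell surface receptor, stood at 338, 426, 302 and 425 CPM against 8.98, 15.3, 39.1 and 5.59 CPM. It was the most even of the leading capillary genes across the 4 libraries. Aqp1, the water channel, stood at 1443, 1443, 669 and 1310 CPM against 394, 358, 285 and 196 CPM, a log2 fold change of 1.92 ± 0.20 (SE). Btnl9, Sparcl1, Tspan13, Adgrf5, Adgrl4, Cxcl12, Kdr and Ly6c1 were also higher, with log2 fold changes from 0.85 for Ly6c1 to 3.48 for Btnl9. The transcription factors Tcf15 and Meox2, which act in fatty acid uptake by heart and muscle capillaries, were higher by 3.83 ± 0.30 and 3.04 ± 0.26 (log2, SE). Emcn, Ly6a, Plvap, Sgk1 and Slc9a3r2 did not pass, with log2 fold changes of 0.41, -0.32, -0.38, 0.37 and 0.41.

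Several capillary genes were all but missing from the other endothelial barcodes, so their fold changes carry wide counting intervals. Car4, the membrane-bound carbonic anhydrase of capillaries (chr11:84957786-84966044, plus strand), had 173 UMIs in the members of all libraries and 5 in the other endothelial barcodes, a ratio of pooled CPM of 51.8 (interval 21.8 to 162). Aqp7, a channel for water and glycerol (chr4:41033074-41048139, minus strand), had 171 against 2 UMIs, a ratio of 128.0 (34.9 to 1065). Slc28a2, a nucleoside transporter, had 122 against 1, and Kcna5, a voltage-gated potassium channel, 101 against 1. Thrsp, a regulator of lipid synthesis, had 166 against 4, Ccdc85a 171 against 4, and Aplnr, the apelin receptor, 89 against 3. All 7 genes were higher in each of the 4 libraries, which was a condition for entering the 12 largest differences. C1qtnf9, Mcf2l and Ablim3 completed the 12 largest differences, at pooled ratios of 23.7, 22.0 and 18.6.

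The promoters of Timp4, Car4 and Aqp7, 3 capillary genes with large differences, are printed so that the stretch before each start site can be read beside these levels. Each runs from 250 bases before to 50 bases after the RefSeq start on GRCm38.p6, 5' to 3' on the gene's strand, with the ETS-type hexamer AGGAAG or its complement CTTCCT in capitals.
Timp4 (chr6:115252156-115252455, minus strand): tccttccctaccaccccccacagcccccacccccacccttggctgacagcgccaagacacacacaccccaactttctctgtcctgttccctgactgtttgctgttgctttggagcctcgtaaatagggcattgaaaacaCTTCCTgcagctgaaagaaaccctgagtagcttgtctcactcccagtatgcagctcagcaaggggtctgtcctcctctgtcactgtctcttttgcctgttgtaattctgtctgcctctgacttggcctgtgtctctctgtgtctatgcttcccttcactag
Car4 (chr11:84957504-84957803, plus strand): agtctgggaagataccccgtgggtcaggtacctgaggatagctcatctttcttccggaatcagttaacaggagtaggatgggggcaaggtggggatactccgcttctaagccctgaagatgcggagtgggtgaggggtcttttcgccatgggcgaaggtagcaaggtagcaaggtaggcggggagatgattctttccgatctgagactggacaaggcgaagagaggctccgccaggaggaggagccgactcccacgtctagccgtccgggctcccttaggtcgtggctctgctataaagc
Aqp7 (chr4:41048087-41048386, minus strand): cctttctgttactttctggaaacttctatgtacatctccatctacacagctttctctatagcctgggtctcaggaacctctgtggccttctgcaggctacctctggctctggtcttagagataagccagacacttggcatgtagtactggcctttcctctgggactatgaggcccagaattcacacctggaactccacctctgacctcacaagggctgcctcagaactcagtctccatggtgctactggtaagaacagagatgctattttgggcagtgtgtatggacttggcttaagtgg
One match was found in Timp4 and none in Car4 or Aqp7. This hexamer stood on either strand in 35.1% of all 27025 promoters of the same length. It stood in 40.4% of the 245 promoters matched to genes higher in capillary-like barcodes, in 33.5% of the 239 matched to genes lower there, and in 32.4% of the 5151 matched to genes tested. A match is a run of letters and no measure of binding.

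**Figure D3:**
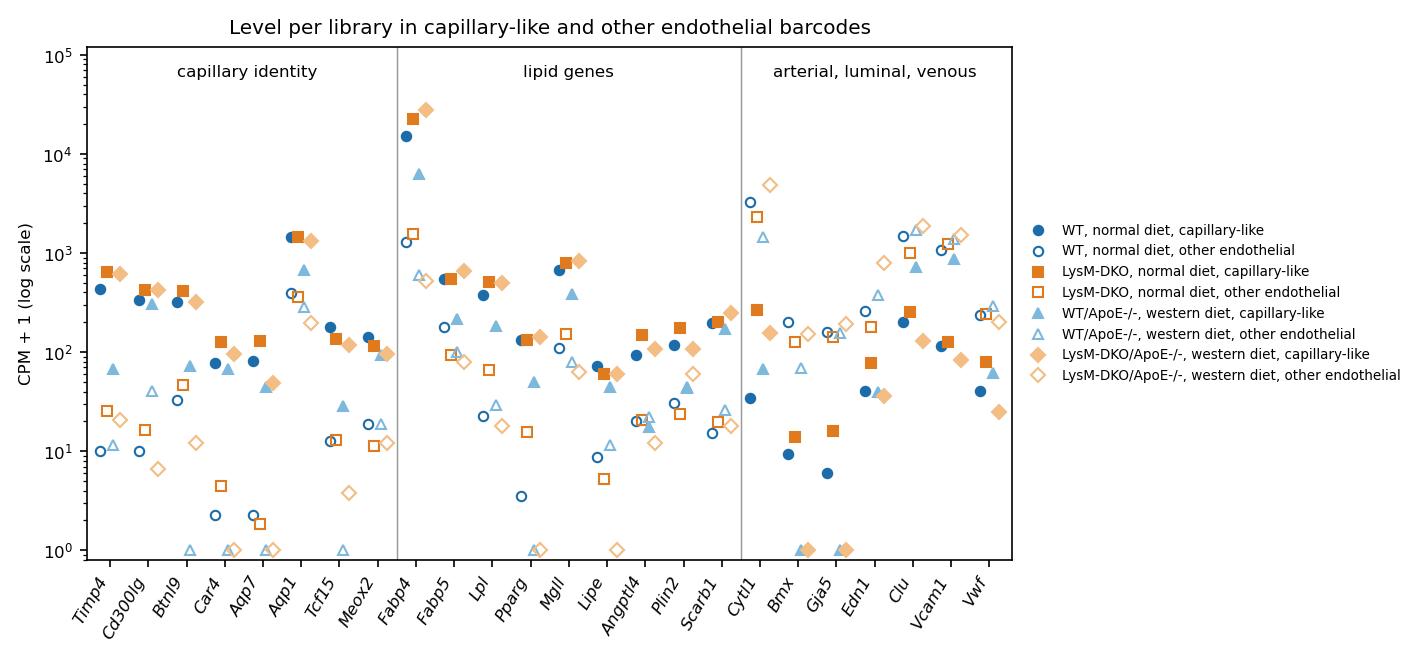
Level in CPM with 1 added (log axis) of capillary, lipid and arterial, luminal or venous genes in each of the 4 libraries, 1 point per library; filled points are capillary-like and open points other endothelial barcodes. Filled points lie above open points of the same library for Fabp4, Lpl, Timp4 and Scarb1, and below them for Cytl1, Clu and Edn1.

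Part of the fatty acid handling genes were higher. Of 18 measured members of the list, 8 were higher and 0 lower, with a median log2 fold change of 0.51. Lpl, the lipase that frees fatty acids from triglyceride, stood at 374, 514, 181 and 496 CPM in the members against 21.8, 65.4, 28.5 and 16.8 CPM in other endothelial barcodes, a log2 fold change of 3.50 ± 0.28 (SE). Lpl protein on capillaries is mostly made by neighbouring fat and muscle cells, and smooth muscle-like barcodes held 14.4 to 44.2 CPM of its RNA. Pparg, the nuclear receptor that drives lipid storage genes, stood at 132, 130, 49.3 and 142 CPM against 2.56, 14.4, 0 and 0 CPM. Mgll, which splits monoglycerides, stood at 680, 791, 384 and 826 CPM against 109, 152, 78.3 and 61.5 CPM. Lipe (hormone-sensitive lipase), Angptl4 (an Lpl inhibitor), Fabp5 and Plin2 (a lipid droplet coat protein) were higher by 3.38, 2.43, 2.08 and 1.88 on the log2 scale. The acyl-CoA synthetases Acsl1, Acsl3, Acsl4 and Acsl5, the caveolar genes Cav1, Cav2, Cavin1 and Cavin2, and Pnpla2 and Vldlr did not pass, at log2 fold changes from -0.20 to 0.56.

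Fatty acid oxidation and most lipoprotein receptors differed less. Of 7 measured oxidation genes 0 passed in either direction, with a median log2 fold change of 0.31 and Cpt1a, the mitochondrial entry step, at 43.0, 40.6, 54.8 and 47.2 CPM against 47.4, 38.2, 74.7 and 36.3 CPM. Small differences can be missed: in simulated counts 23.1% of genes changed 2 fold and 92.8% of genes changed 4 fold were called. The simulation assumed the same dispersion for all genes and libraries that differed only in total UMIs, so these shares may not hold for the measured counts. Among 8 measured lipoprotein and scavenger receptors, 1 was higher. This was Scarb1, the receptor for high-density lipoprotein (chr5:125277087-125341094, minus strand), at 195, 202, 170 and 248 CPM against 14.1, 18.7, 24.9 and 16.8 CPM, a log2 fold change of 3.45 ± 0.22 (SE). Its level was nearly the same in all 4 libraries. Lrp1, Stab1, Scarf1, Acvrl1 and the cholesterol exporters Abca1 and Abcg1 did not pass. Abcg1, named in the study's title, stood at 26.5, 26.7, 38.4 and 94.4 CPM in the members, the last from 8 UMIs.

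Adipocyte RNA was low, and on normal diet it moved with the capillary-like barcodes. The 7 adipocyte markers summed to 62.9, 201, 10.97 and 11.8 CPM in the members and to 1.28, 10.2, 0 and 0 CPM in the other endothelial barcodes. The members' western diet values rested on 2 UMIs in WT/ApoE-/- and 1 UMI in LysM-DKO/ApoE-/-. Cfd made up most of it on normal diet, at 36.4 and 135 CPM, and stood at 0 and 11.8 CPM on western diet. Lep was at 0 in all 4 libraries and Plin1 in all but LysM-DKO on normal diet. The part of adipocyte RNA in the differences of Fabp4, Lpl, Lipe and Pparg was not tested. Pericyte markers also moved with the members, but not in WT/ApoE-/-. The 6 markers summed to 1440, 1836, 1108 and 555 CPM in the members against 586, 410, 1266 and 397 CPM. Kcnj8 and Notch3 were higher among 5 measured, and Rgs5, at 1101, 1415, 751 and 354 CPM against 441, 257, 936 and 266 CPM, did not pass. Of 6 smooth muscle markers 0 passed, and of 6 fibroblast markers Col1a2, Dcn and Lum were lower.

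Receptors and growth factor genes of capillary endothelium were higher. Of 13 measured genes of VEGF, angiopoietin and sprouting, 7 were higher and 0 lower, with a median log2 fold change of 1.12. Kdr, the main signalling receptor for VEGF-A, stood at 733, 783, 291 and 555 CPM against 138, 176, 78.3 and 36.3 CPM, a log2 fold change of 2.44 ± 0.25 (SE). Flt1, its high-affinity decoy, stood at 1179, 1110, 483 and 755 CPM against 276, 263, 210 and 322 CPM. The co-receptors Nrp1 and Nrp2, the pericyte attractant Pdgfb and Igfbp3 were higher by 1.12, 1.27, 1.24 and 2.49 on the log2 scale, Pdgfb in the normal diet libraries but not in the 2 western diet ones. Tek, the angiopoietin receptor, did not pass, and neither did Angpt2, Pgf, Unc5b, Flt4 or Plvap. In the Notch list the ligands divided: Dll4 (log2 fold change 1.21) and Jag2 (1.54) were higher with Notch4 (0.91), and Jag1 (-0.99) and Dll1 (-0.92) were lower.

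Of 22 arterial and luminal aortic genes, 15 were lower and 2, Dll4 and Sox17, were higher, with a median log2 fold change of -1.26. Cytl1, a secreted factor, stood at 33.1, 267, 65.8 and 153 CPM in the members against 3286, 2325, 1455 and 4853 CPM in other endothelial barcodes. The members' Cytl1 came from few barcodes, 4.70%, 8.76%, 17.4% and 22.2% of them. The gap junction genes Gja5 and Gja4 were lower by 4.10 and 1.98 on the log2 scale, and the arterial kinase gene Bmx by 4.02. Gja5 stood at 4.97, 15.1, 0 and 0 CPM against 159, 139, 157 and 190 CPM. Edn1 (endothelin 1), Clu, Eln, Mgp, Bmp4, Fbln5, Fbln2, Ltbp4, Gkn3, Stmn2 and Jag1 were the other lower members. Klk10, a kallikrein-related gene, had 0 UMIs in the members and 125 in the other endothelial barcodes, at least 27.8-fold lower against a floor of 3 counts over all members. Adh7, Sfrp1, Ecrg4, Krt18, Pthlh and Gcnt1 completed the 12 largest differences in this direction, with pooled ratios from 12.2 for Gcnt1 to 40.9 for Adh7.

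Part of the adhesion, tone and venous genes were also lower. Vcam1, which captures leukocytes, stood at 114, 126, 872 and 82.6 CPM in the members against 1066, 1222, 1387 and 1501 CPM. The WT/ApoE-/- library was the high one among the members, and it was also the library rich in smooth muscle and fibroblast RNA. Of 12 measured activation genes 7 were lower and 0 higher, among them Icam1, Cxcl1, Sele, Selp, Icam2 and Nfkbia. Of 9 measured venous genes 5 were lower: Cpe, Sele, Selp, Vcam1 and Vwf, the last at 39.7, 77.7, 60.3 and 23.6 CPM against 237, 240, 292 and 201 CPM. Sele, Selp and Vcam1 also belong to the activation list. Ephb4, Il1r1, Lrg1 and Nr2f2 did not pass, and 3 of the 9 venous genes had log2 fold changes above 0. Of 12 measured genes of flow and vascular tone 6 were lower, with Nos3 (nitric oxide synthase) at -0.96 ± 0.19 (log2, SE), Ace at -1.91 and Procr at -2.33, and 1, the endothelin receptor Ednrb, was higher at 1.56. The flow-responsive factors Klf2 and Klf4 did not pass, at -0.11 and -0.10.

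**Figure D4:**
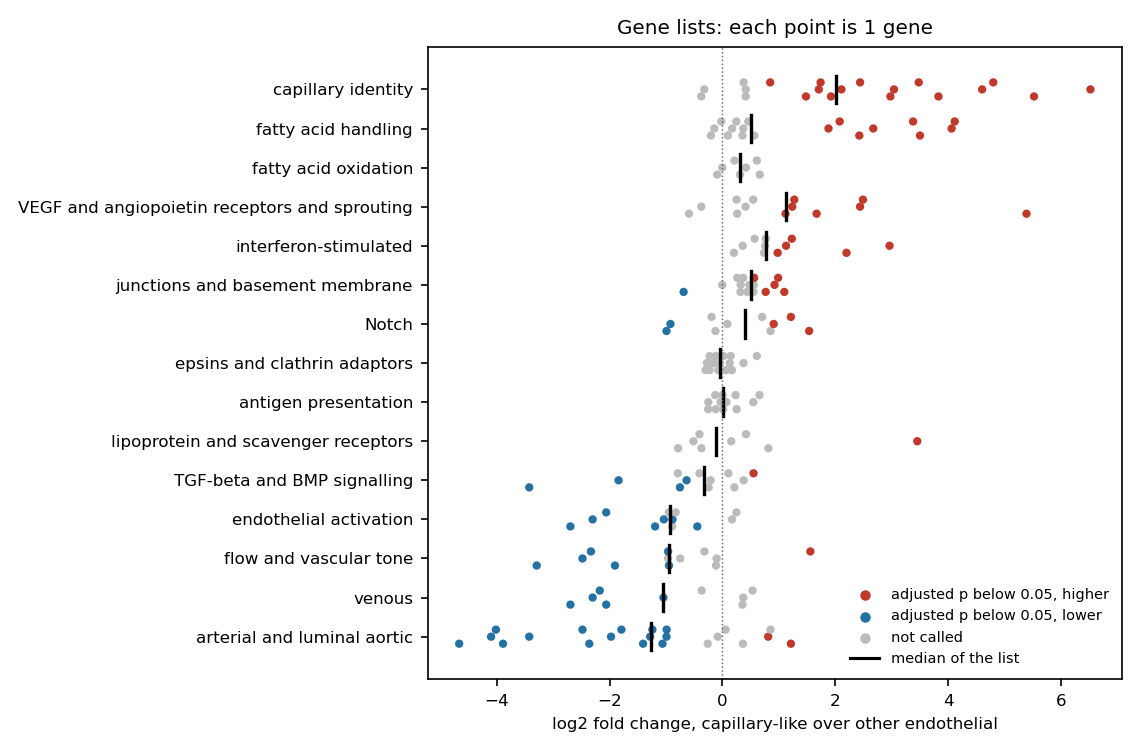
Log2 fold change of capillary-like over other endothelial barcodes (x axis) for the measured genes of 15 lists (rows); each point is 1 gene, coloured by whether it passed an adjusted p below 0.05, and the black bar is the median of the list. Capillary identity genes have a median of 2.02 and arterial and luminal aortic genes of -1.26.

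Of 11 measured interferon-stimulated genes 5 were higher and 0 lower: Rsad2 (log2 fold change 2.96), Ifit2, Gbp7, Ifi44 and Xaf1, with a median of 0.77 over the list. Of 16 measured junction and basement membrane genes 5 were higher, the collagen IV chains Col4a1 and Col4a2 with Nid1, Jam2 and Tjp1, and Col18a1 was lower. In the TGF-beta and BMP list 4 of 12 were lower (Bmp4, Bmp6, Bmpr2, Smad7) and Id1 was higher. Of 12 measured antigen presentation genes, 15 epsin and clathrin adaptor genes and 6 lymphatic genes, 0 passed in either direction. The lymphatic genes differed in opposite directions between libraries. All 7 of that list summed to 1159, 611, 1113 and 5298.5 CPM in members of WT, LysM-DKO, WT/ApoE-/- and LysM-DKO/ApoE-/-. In other endothelial barcodes they summed to 964, 2034, 882 and 391 CPM. Of 20 genes of the dissociation stress response, Btg2 and Hspb1 were higher and Fosb was lower. Of 10 glucocorticoid-responsive genes Cdkn1a was higher and Mt1 and Mt2 were lower.

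Between LysM-DKO and WT the capillary-like cells of the normal diet libraries were close. Among 7741 genes with at least 20 UMIs, 198 (2.56%) were at least 2 fold higher and 217 (2.8%) at least 2 fold lower in LysM-DKO. Of the 20 capillary identity genes and 18 measured fatty acid genes, 0 passed 2 fold, with median log2 ratios of 0.07 and -0.01 beside -0.05 over all genes. On western diet 217 of 2552 genes (8.5%) were at least 2 fold higher and 312 (12.2%) lower, from far fewer UMIs. There 4 of 18 measured capillary identity genes and 6 of 10 measured fatty acid genes were at least 2 fold higher in LysM-DKO/ApoE-/-, with medians of 0.62 and 1.06 beside 0.06 over all genes. In the 8 and 11 members left without lymphatic and smooth muscle-rich barcodes, these medians were -0.04 over 16 genes and 0.68 over 7 genes. Of 16 measured pan-endothelial genes outside the rule 6 were at least 2 fold higher and 0 lower, with a median of 0.80, and of 0.04 over 12 genes in the reduced set. The difference between the diets was not tested.

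The 8 genes named here had ratios above 0 for LysM-DKO over WT on both diets, a sign fixed by how they were chosen. Rbp7, a cellular retinol-binding protein, stood at 420 and 837 CPM on normal diet and at 38.4 and 732 CPM on western diet. Its log2 ratio was 0.99 (interval 0.79 to 1.21) on the normal and 4.16 (3.12 to 5.63) on the western diet, and 0.87 and 3.94 without the lymphatic and smooth muscle-rich barcodes. The WT/ApoE-/- value rested on 7 UMIs. Timp4 had log2 ratios of 0.57 and 3.18, and 0.32 and 3.08 in the reduced set. Fabp4 had log2 ratios of 0.56 (0.52 to 0.59) and 2.12 (2.02 to 2.22), which became 0.38 and 1.47. Lpl had 0.46 and 1.45, and in the reduced set 0.22 (-0.03 to 0.48) on normal diet, with an interval of 0.17 to 1.94 on western diet. Ly6c1 had 0.67 and 0.94, and in the reduced set 0.45 and 0.52 (-0.10 to 1.18). Timp3 had 0.40 and 1.59, and then 0.57 and 2.13. Ldha, a lactate dehydrogenase gene, had 0.60 and 0.47, and its western diet interval of -0.41 to 1.29 included 0. Mmrn2 had 0.41 and 1.11, but -0.31 on western diet in the reduced set. Adipocyte markers moved the same way on normal diet (62.9 CPM in WT, 201 CPM in LysM-DKO), and their part in the Fabp4, Lpl and Rbp7 differences was not tested.

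The 8 genes chosen in the other direction had ratios below 0 on both diets. Nts (neurotensin) had the largest ratio, with levels of 439 and 125 CPM on normal diet and 274 and 165 CPM on western diet and log2 ratios of -1.80 (-2.14 to -1.48) and -0.69 (-1.70 to 0.15). Nts came from 8.05% and 6.91% of the normal diet members, and in the reduced set it stood at 57.7 and 8.68 CPM. The other 7 genes had ratios of Fosl2 at -0.63 and -1.18, Nfkbia at -0.43 on both diets, Tra2b at -0.38 on both, Luc7l2 at -0.41 and -0.34, Prrc2c at -0.28 on both, Rbm3 at -0.27 and -0.50, and Actg1 at -0.27 and -0.46, and the western diet intervals of 4 of them, Tra2b, Luc7l2, Prrc2c and Rbm3, included 0. The normal diet interval of Rbm3 did too. In the reduced set the western diet ratio was -2.22, from 17 UMIs, for Fosl2 and -0.07 (-0.52 to 0.38) for Actg1. For Nfkbia the normal diet ratio was 0.22 in the reduced set. Zbtb16, a glucocorticoid-responsive transcription factor, was at 66.2 and 210 CPM on normal diet and at 110 and 212 CPM on western diet, log2 ratios of 1.65 (1.16 to 2.20) and 0.96 (-0.05 to 1.95), and of 1.82 and 0.89 in the reduced set. The same direction was present in other endothelial barcodes, at 46.2 and 125 CPM and at 71.1 and 162 CPM. Blood RNA differed as well: 5 erythroid genes summed to 4631 CPM (WT), 1217 CPM (LysM-DKO), 38.4 CPM (WT/ApoE-/-) and 0 CPM (LysM-DKO/ApoE-/-).

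**Figure D5:**
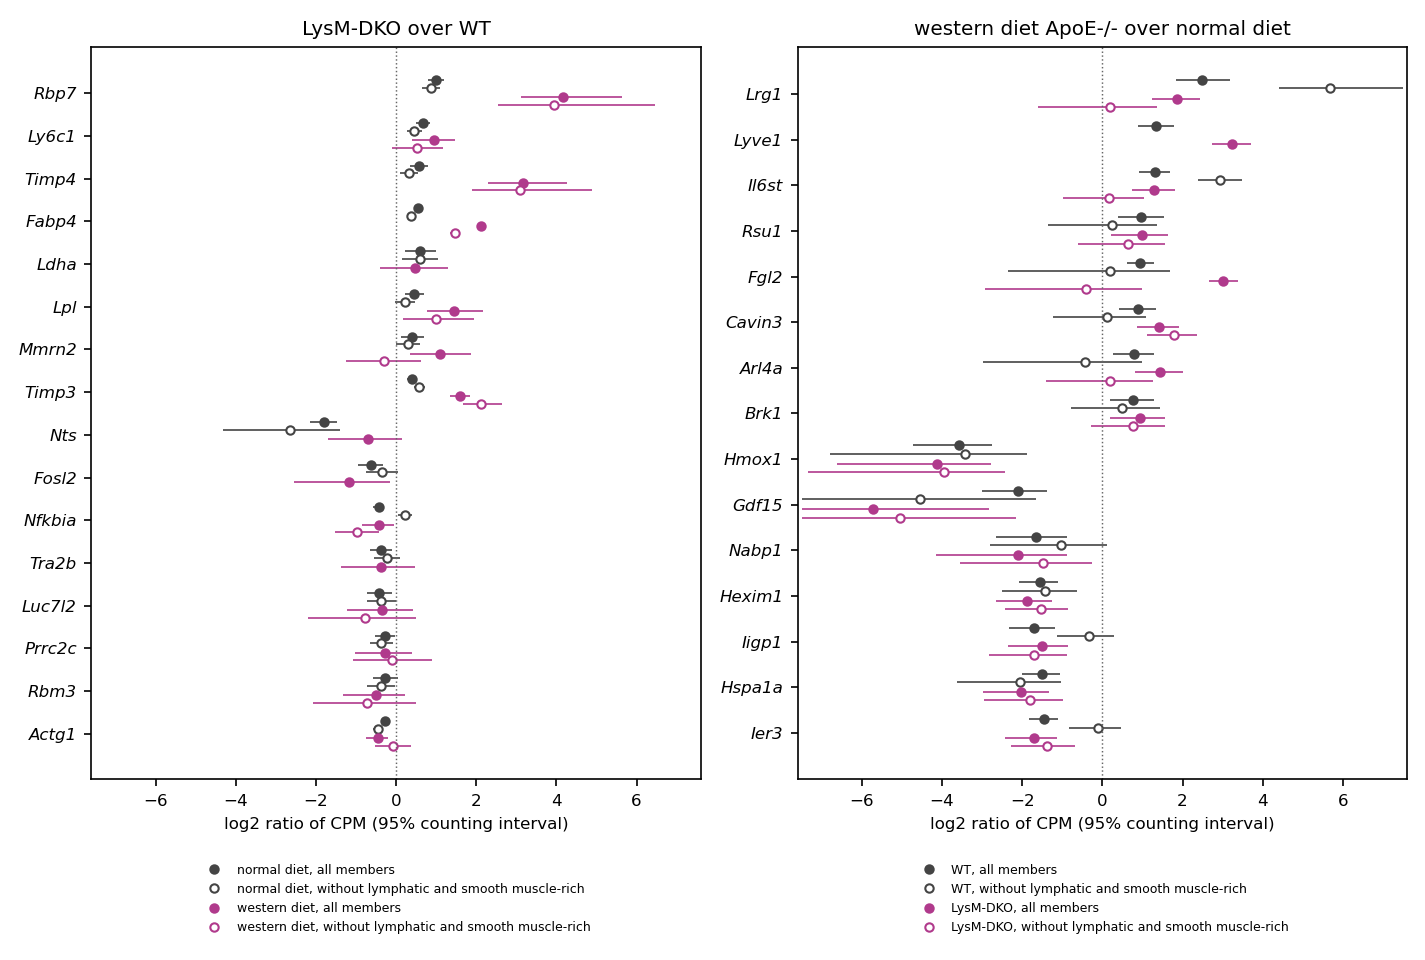
Log2 ratio of CPM in capillary-like barcodes with exact 95% counting intervals (x axis, clipped at the frame) for named genes (rows), LysM-DKO over WT on either diet (left) and western diet ApoE-/- over normal diet in either genotype (right). Filled points use all members and open points leave out lymphatic and smooth muscle-rich barcodes; ratios from fewer than 20 UMIs are not drawn, and Rbp7 on western diet reaches 4.16.

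Between the diets, in WT 569 of 5818 genes (9.78%) were at least 2 fold higher and 657 (11.3%) lower in the western diet library, and in LysM-DKO 730 of 6307 (11.6%) were higher and 788 (12.5%) lower. Over all genes the median ratio was -0.02 (WT) and 0.11 (LysM-DKO). These comparisons share their libraries with the genotype comparisons. Hmox1, the heme-degrading stress enzyme (chr8:75093621-75100589, plus strand), stood at 690 and 716 CPM in the normal diet members of WT and LysM-DKO and at 54.8 and 35.4 CPM in the western diet members. Its log2 ratios of western over normal diet were -3.59 (WT, interval -4.72 to -2.76) and -4.12 (LysM-DKO, -6.62 to -2.78), and -3.42 and -3.96 in the reduced set. Other endothelial barcodes moved alike, from 603 and 649 CPM to 74.7 and 25.2 CPM. So did the kept barcodes that were not endothelial, from 233 and 385 CPM to 56.6 and 25.5 CPM. The chaperone Hspa1a, the transcription regulator Hexim1, the immediate early gene Ier3, Nabp1, the stress cytokine Gdf15 and the interferon-induced GTPase Iigp1 were lower too, with log2 ratios in WT from -1.45 for Ier3 to -2.10 for Gdf15. Gdf15 had 0 UMIs in the LysM-DKO/ApoE-/- members. For Iigp1 and Ier3 the WT ratio was -0.34 and -0.12 in the reduced set, and for Hspa1a and Hexim1 it was -2.05 and -1.43.

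The genes that were higher on western diet depended on which members were counted. Lyve1, a hyaluronan receptor of lymphatic endothelium, stood at 164 and 85.8 CPM on normal diet and at 417 and 802 CPM on western diet. Its log2 ratio in LysM-DKO was 3.23 (2.73 to 3.72) with all members and -0.42, from 9 UMIs, without lymphatic and smooth muscle-rich barcodes. Lyve1 was among the genes that marked the lymphatic barcodes, so its loss there was set by the choice of barcodes and is not a finding. Fgl2 had 3.02 and then -0.40 in LysM-DKO. Lrg1, an activator of TGF-beta signalling in vessels, had 2.49 in WT and 1.86 in LysM-DKO, and then 5.69 and 0.19. Il6st, the shared receptor chain of the interleukin 6 family, had 1.31 and 1.30, and then 2.95 and 0.17. Cavin3 kept a ratio of 1.78 in LysM-DKO but had 0.11 in WT. Rsu1, Arl4a and Brk1 had ratios from 0.75 to 1.44 with all members and from -0.43 to 0.76 in the reduced set.

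With all members counted, the capillary and lipid genes were lower on western diet in WT, and whether this differs between the genotypes was not tested. In WT, 8 of 20 capillary identity genes and 7 of 17 measured fatty acid genes were at least 2 fold lower on western diet, with medians of -0.83 and -0.84. In LysM-DKO, 1 of 20 and 2 of 18 were, with medians of -0.30 and 0.09. Other endothelial lists were lower in WT too: 8 of 19 pan-endothelial genes outside the rule (median -0.92) and 8 of 10 measured Notch genes (median -1.54) were also at least 2 fold lower on western diet, and in the reduced set these medians were 0.07 over 19 and -0.47 over 9 genes. For the capillary identity and fatty acid genes the WT medians in the reduced set were -0.13 over 20 genes and -0.34 over 15 genes. The LysM-DKO medians there were 0.09 over 20 genes and 0.13 over 17 genes. Fabp4 had log2 ratios of -1.27 in WT and 0.30 in LysM-DKO, and -0.34 and 0.74 in the reduced set. Smooth muscle RNA was higher in the WT/ApoE-/- members, and fell to 2820 CPM for the 6 markers in the reduced set, beside 4620 CPM in WT on normal diet. The reduced set leaves out barcodes by these same 6 markers, so a fall was set in advance. Abca1, which exports cholesterol to apolipoproteins, was at 131 and 108 CPM on normal diet and at 345 and 189 CPM on western diet, log2 ratios of 1.40 (0.90 to 1.90) and 0.84 (-0.06 to 1.58), and the WT ratio was 2.63 (1.93 to 3.29) in the reduced set, where the LysM-DKO interval, -0.26 to 1.94, included 0.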

How the data were processed

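The deposited matrices hold raw UMI counts per gene and barcode, made by the authors with Cell Ranger: per the file headers, normal diet libraries carry version 6.0.1 and western diet libraries 6.1.2. The submitters' processing notes name Cell Ranger 6.1.2, Seurat 4.1.0 and mm10. Each group is 1 library, so the groups were compared without a test, as CPM of UMIs summed over barcodes with exact Poisson and binomial 95% intervals. The members, the gene lists and the barcode classes were chosen with earlier results of these data known. Capillary-like and other endothelial sums were compared with edgeR 4.0.16 (quasi-likelihood, library as block, TMM scaling, filterByExpr with a minimum count of 10, R 4.3.3), tested on simulated data, in which 4 of 6133 unchanged genes were called. Named besides list genes were the 12 largest differences per direction with the same sign in 4 libraries and at least 50 CPM, and between libraries the 8 per direction with the same sign in both contrasts and at least 200 CPM. Ratios had 0.5 UMIs added and needed 20 UMIs over both libraries. The gene positions are GENCODE's on GRCm38, and the promoters are RefSeq's. Doublets were scored with scanpy 1.11.5 and kept. The tool itself marked 0.00643% and 0.0101% of the western diet barcodes, so it did not work there, and the top-scoring barcodes were marked for an alternative instead. These included 27, 18, 0 and 0 members. A few genes that these rules or lists hold are not reported here.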

Additional observations from a re-analysis of the deposited data

Results flagged for a closer look

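Cavin2, a caveolar coat gene, differed between the genotypes in opposite directions on the 2 diets in capillary-like barcodes. On normal diet its level in LysM-DKO relative to WT had a log2 ratio of -0.42 (interval -0.57 to -0.28), and on western diet the ratio was 0.97 (0.63 to 1.31). With 1 library a group the difference was not tested. Without lymphatic and smooth muscle-rich barcodes the ratios were -0.43 and -0.56, of the same sign.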

How the results depend on the processing

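Genes higher and lower in capillary-like barcodes numbered 176 and 187 with DESeq2, 158 and 139 with no library block, and 118 and 120 of 1798 tested with barcodes thinned to 1000 UMIs. There were 505 genes higher with the normal diet libraries only, and 511 lower with no filter on low counts. Leaving out 1 library gave 88 to 348 higher and 57 to 364 lower. Of the genes called in the full fit, 1, among those lower, changed sign, with thinned barcodes. The values of 87 named genes gave 1161 comparisons with an alternative. Of these, 1102 kept their side of the threshold, 50 lost and 9 gained a call. A change of sign was counted only for genes with a call in either setting. The library is the pairing unit of that fit. No paired analysis was possible between the groups because each is 1 library.

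Without lymphatic and smooth muscle-rich barcodes the share of kept barcodes was 1.51% in WT, 2.09% in LysM-DKO and 0.0582% in WT/ApoE-/-, and LysM-DKO reached 52.8% of endothelial barcodes. Thinned, the shares of kept barcodes were 0.773%, 0.996%, 0.0364% and 0.0861%, and those of endothelial barcodes 41.7% in WT, 37.6% in LysM-DKO and 14.6% in LysM-DKO/ApoE-/-. With at least 2000 UMIs WT had 45.4% of endothelial and WT/ApoE-/- 0.294% of kept barcodes. A capillary sum of at least 5 gave 2.25% and 38.4% in LysM-DKO, and at most 5% mitochondrial UMIs gave 0.405% in LysM-DKO/ApoE-/-.

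With at least 50 UMIs, genes past 2 fold numbered 52 higher and 49 lower for LysM-DKO over WT on normal diet, 63 and 106 on western diet, and 206 and 295 (WT) and 210 and 321 (LysM-DKO) for western over normal diet. Equal weight for each barcode gave 316 higher for LysM-DKO over WT on normal diet. Without lymphatic and smooth muscle-rich barcodes 81 and 79 genes passed on western diet. In that setting 4 ratios that had been at least 2 fold in size reversed: Mmrn2 (-0.31) and Mgp (2.44) for LysM-DKO over WT on western diet, and Lyve1 (-0.42) and Fgl2 (-0.40) for western over normal diet in LysM-DKO. Smaller ratios that changed sign were not counted as reversed. Among them were Nfkbia for LysM-DKO over WT on normal diet (-0.43 to 0.22) and Arl4a for western over normal diet in WT (0.79 to -0.43). Lyve1 was itself among the genes by which lymphatic barcodes were left out. Apart from the barcodes left out, the cause was not tested. The 83 ratios between libraries, counted per gene and contrast, gave 498 comparisons with an alternative. In 426 of these the ratio moved by less than its counting interval. The 23 and 18 western diet members limit every western diet value.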
